A study of Mus musculus with 2 samples.

Results

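Fatty acids are the main fuel of the adult heart, and 10 genes that carry them from the blood into mitochondrial oxidation were followed here in RNA brought down with the acetyltransferase NAT10. The genes were Lpl, Cd36, Fabp3, Acsl1, Cpt1b, Cpt2, Acadvl, Hadha, Hadhb and Mlycd, taken by symbol from the gene overlap column of the authors' summit table, each summit once. A summit is a single base where the signal within a peak was locally highest, and a peak can hold more than 1. Summits were found in 6 of the 10 genes (60.0%), with 9 summits among the 2020 of the whole table (0.446%). Over all 21770 protein-coding genes of the GENCODE mouse annotation, 919 had a summit (4.22%). That background holds genes that the heart does not express, so the higher share among these 10 heart genes does not tell binding from expression. The 10 genes were also chosen with earlier results of these data known.

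The series asked which mRNAs associate with NAT10, an enzyme that acetylates cytidines in RNA, in the mouse heart. Wild-type mice were injected under the skin at day 1 after birth with an AAV9 virus that expressed FLAG-tagged NAT10 from the cTnT promoter, a promoter active in heart muscle cells, and were killed 20 days after the injection. Both groups came from such hearts. The RIP group (1 library) was RNA brought down from lysate of about 60 mg of heart tissue with anti-FLAG beads, and the Input group (1 library) was RNA from the 10% of lysate set aside before the pulldown. The sources used here do not say how many hearts went into a library, and no pulldown from hearts without FLAG-NAT10 was analysed here, so RNA that sticks to beads or antibody cannot be told apart from RNA held by NAT10.

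With 1 library per group there is no replicate check of any value below, and no p-value was computed across genes. The score of a summit is the authors' own -log10 value from their peak caller. Its column header was lost, so whether it is a p-value or a q-value is unknown. Scores had a median of 12.5 over all summits, with quartiles of 5.83 and 28.3. The table holds no read counts, so the depth is unknown, and a score can rise with the abundance of an mRNA as well as with its enrichment. Positions are given on GRCm38, the build on which 98.9% of the table's lines matched by symbol lay inside their gene.

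Long-chain fatty acids reach heart muscle cells mostly from triglycerides that lipoprotein lipase cleaves at the vessel wall. They cross the membrane with the help of CD36, are carried through the cytosol by a binding protein, and are joined to coenzyme A by an acyl-CoA synthetase. The carnitine palmitoyltransferases move them into mitochondria, where beta-oxidation shortens the chain step by step. Malonyl-CoA blocks the first of these transferases, so the enzymes that make and destroy it set the pace of entry.

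The strongest summits of the pathway lay in genes of uptake and transport within the cell. Lpl, which encodes lipoprotein lipase (ENSMUSG00000015568, chromosome 8, 68880555 to 68906932), had a pair of summits in its 3' UTR. The stronger scored 391 at 68905702 and ranked 13 among all 2020 summits by score. The other scored 55.4 at 68905041, 661 bases upstream. They belonged to separate peaks, and both exceeded the upper quartile of all scores, with a ratio of 7.06 between them. Among the 919 protein-coding genes with a summit, Lpl ranked 9 by its strongest score (percentile 99.1). The 3' UTR makes up 59.0% of the spliced length of the canonical Lpl transcript in GENCODE, 2428 of 4115 bases, the largest share among the 10 genes.

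Fabp3, the fatty acid binding protein of heart muscle cytosol (ENSMUSG00000028773, chromosome 4, 130308738 to 130315463), had 1 summit, with a score of 223 at 130315334. It lay in the 3' UTR, 129 bases from the 3' end of the gene in the RefSeq annotation. Fabp3 ranked 17 among genes with a summit (percentile 98.3), although its spliced transcript of 823 bases is the shortest of the 10. Cd36, the membrane fatty acid transporter (ENSMUSG00000002944, chromosome 5), had no summit between its RefSeq bounds of 17781690 and 17888959 or within 3000 bases on either side. The uptake genes therefore ranged from among the highest scores of the table to no entry.

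Acsl1, the main long-chain acyl-CoA synthetase of the heart (ENSMUSG00000018796, chromosome 8, 46471037 to 46536051), was not in the gene column of the table. The table did list a summit with a score of 63.7 at 46535821, which it placed in no gene. That base lies inside the RefSeq bounds of Acsl1, 230 bases from the gene's 3' end, whereas the start of the gene the table called closest, Cenpu, was 16234 bases away. By RefSeq bounds, 7 of the 10 genes had a summit, against 968 of 21900 RefSeq protein-coding genes (4.42%). The score of 63.7 would stand at percentile 89.4 of the strongest scores per gene. Acsl1 is counted below as without a summit unless RefSeq bounds are named.

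**Figure D1:**
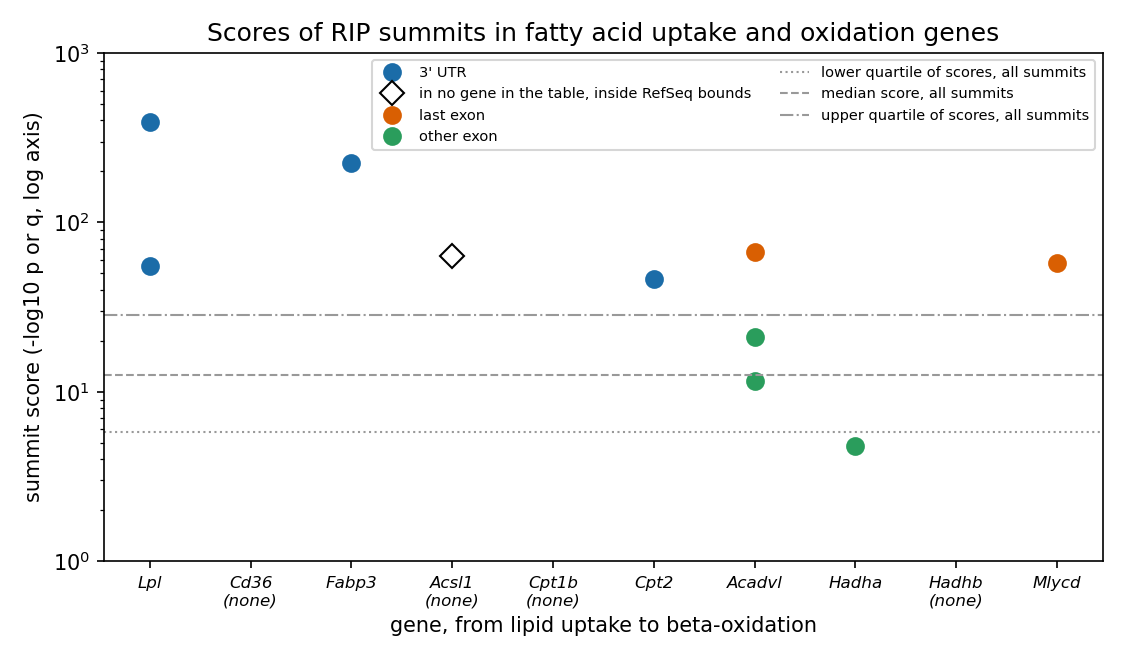
Score of every summit (-log10 p or q, log axis) in each of the 10 genes, ordered from uptake to oxidation, with colours for the region and dashed or dotted lines for the quartiles of all 2020 summits; the open diamond is the summit of score 63.7 that lies inside Acsl1 by RefSeq bounds only. Lpl and Fabp3 stand above 200, Hadha lies below the lower quartile, and genes marked "none" have no summit in the table's gene column.

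The carnitine shuttle was represented by its inner-membrane enzyme. Cpt2 (ENSMUSG00000028607, chromosome 4, 107903982 to 107923589), which turns acylcarnitines back into acyl-CoA inside the mitochondrion, had 1 summit with a score of 46.2 at 107904162. The summit lay in the 3' UTR, 180 bases from the gene's 3' end, although that UTR holds only 10.6% of the transcript (251 of 2377 bases). Cpt2 ranked 139 (percentile 85.0). Cpt1b, the muscle form of the outer-membrane transferase and the step that malonyl-CoA blocks (ENSMUSG00000078937, chromosome 15, 89416405 to 89425862), had no summit within its RefSeq bounds or within 3000 bases of them.

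Mlycd, malonyl-CoA decarboxylase, which removes that inhibitor (ENSMUSG00000074064, chromosome 8), had 1 summit with a score of 57.5 at 119410888. It ranked 105 (percentile 88.7). The table placed it in the last exon, 199 bases before the end of its own model of the gene at 119411087. RefSeq extends Mlycd to 119421838, so that the same base lies 10950 bases from the RefSeq end. Which of these ends the heart transcripts use was not tested, and the label of last exon does not say whether the base is coding.

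Beta-oxidation proper was represented by Acadvl and, weakly, by Hadha. Acadvl (ENSMUSG00000018574, chromosome 11, 70010183 to 70015428) encodes the very long-chain acyl-CoA dehydrogenase, the first enzyme of the spiral for long chains. It had 3 summits, more than any other of the 10 genes. The summit at 70011388, in exon 14, scored 11.6. The summit at 70011219, in exon 15, scored 21.0. The summit at 70010363, in the last exon and nearest the 3' end of the gene, scored 66.8, the highest of the 3. The summits in exons 14 and 15 were 169 bases apart and belonged to the same peak. By its strongest score Acadvl ranked 90 (percentile 90.3), but by the median of its 3 scores it stood at percentile 73.8.

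All 3 Acadvl summits were also assigned by the table to the 3' UTR of Dvl2, a dishevelled protein of Wnt signalling that lies on the other strand. These were the only summits of the 9 that overlapped more than 1 gene, against 240 of all 2020 summits (11.9%). In RefSeq on GRCm38, Dvl2 ends 74 bases before the Acadvl bounds begin, and 0 of the 3 summits lay inside it. The table gives no strand for reads, so the assignment to Acadvl was not tested.

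Hadha and Hadhb encode the alpha and beta subunits of the mitochondrial trifunctional protein, which carries out the later steps of long-chain beta-oxidation. They are neighbours on chromosome 5, read in opposite directions, and 273 bases separate their RefSeq bounds. Hadha (ENSMUSG00000025745, 30119423 to 30154980) had 1 summit with a score of 4.78 at 30135061 in exon 8, below the lower quartile of all summits, and ranked 788 of 919 (percentile 14.4). Hadhb (ENSMUSG00000059447, 30155253 to 30184593) had none within its bounds or within 3000 bases of them. The partner subunits of 1 enzyme thus had a weak summit and no summit.

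Among the 9 summits, only that of Hadha lay in an internal exon of exactly 1 gene, and that exon is therefore shown. The sequence is exon 8 of 20 of the GENCODE canonical transcript (bases 912 to 1034, 123 bases, mRNA strand with T for U), 5' to 3'. It was found by exon number. The summit lies 20101 bases from the start of the gene in the table, and exon 8 spans bases 20082 to 20204 from the start of the GENCODE transcript. From the RefSeq start the summit lies 19919 bases in, outside that span. The starts differ between annotations, so the choice of exon rests on its number alone.
Hadha exon 8: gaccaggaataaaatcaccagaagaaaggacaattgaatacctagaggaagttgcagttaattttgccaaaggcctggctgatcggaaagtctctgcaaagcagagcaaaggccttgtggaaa
The triplet CCG, in which NAT10 acetylates cytidines of the small-subunit ribosomal RNA, would be in capitals and does not occur in this exon on the mRNA strand. Its reverse complement CGG occurs 1 time. Among 1381 internal coding exons of the same length in canonical transcripts, 56.3% hold CCG and 60.1% hold CGG. Cytidines make up 17.9% of the exon, against a median of 24.4% over those exons. These letters describe the exon and do not locate a bound or acetylated base. For the other summits no sequence is shown, since the genome given here is not of the build of the table.

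Across the 10 genes, scores fell into a strong set and a single weak gene. Of the 9 summits, 7 reached the median of all summits and 6 reached the upper quartile, which 505 of all 2020 summits reach by its definition. Counting genes, 5 of 10 reached the median score with at least 1 summit, against 2.29% of all protein-coding genes. The same 5 genes, Lpl, Fabp3, Cpt2, Acadvl and Mlycd, reached the upper quartile, against 1.04%. Scores can follow abundance, so these counts describe the table and do not separate binding from expression. Single summits were the rule in the table as in this pathway. Exactly 1 summit was found in Fabp3, Cpt2, Hadha and Mlycd, and in 642 of all 919 genes (69.9%).

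**Figure D2:**
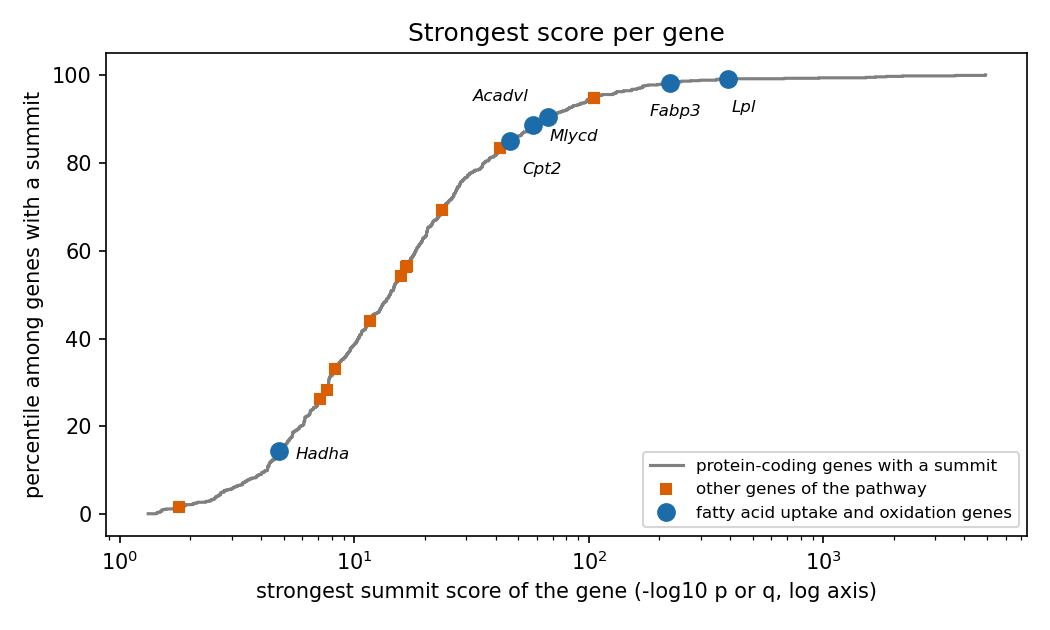
Percentile of the strongest summit score of each gene (x axis, -log10 p or q, log axis) among the 919 protein-coding genes with a summit (grey line), with the 6 fatty acid genes as labelled circles and 12 other genes of the pathway as squares. Lpl and Fabp3 lie above percentile 98, Acadvl, Mlycd and Cpt2 between 85.0 and 90.3, and Hadha at 14.4.

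By the table's gene column, the ranges of transcript length overlapped between genes with a summit and those without. The canonical spliced transcripts of the 6 genes with a summit run from 823 bases in Fabp3 to 4115 in Lpl. Those of Cd36, Acsl1, Cpt1b and Hadhb, which had none, are 3505, 5780, 3054 and 2033 bases long, so the ranges overlap, and the longest transcript of the 10, Acsl1, is among those without an entry in the table's gene column. The lengths of the 3' UTR likewise overlapped, from 120 bases in Acadvl to 2428 in Lpl with a summit and from 491 in Cpt1b to 2628 in Acsl1 without. By RefSeq bounds Acsl1 has a summit, so the longest transcript then belongs to a gene with one. Cd36, Cpt1b and Hadhb still fall within the range of the rest in both lengths. Whether length plays a part was not tested with so few genes.

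By region, 4 of the 9 summits lay in 3' UTRs (44.4%, exact Clopper-Pearson 95% interval 13.7 to 78.8), namely both of Lpl and those of Fabp3 and Cpt2. The last exon held 2 (22.2%, 2.81 to 60.0) and other exons 3 (33.3%, 7.49 to 70.1). None of the 9 lay in an intron or a 5' UTR, which allows a share of up to 33.6% for each. Over all 2020 summits, 36.0% lay in 3' UTRs (33.9 to 38.2), 8.96% in last exons, 43.3% in other exons, 5.74% in introns and 1.53% in 5' UTRs. Each interval of the 9 summits contains the share over all summits, and no difference in region was detectable with so few. The intervals cover counting error only and treat summits as independent. Lpl held 2 of the 9 summits and Acadvl 3, and Ttn held 235 of the 2020, so the intervals may be too narrow.

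Distance to the gene's 3' end on the genome gave a second view of position. Within 300 bases of the RefSeq end lay 3 of the 9 summits (33.3%, 7.49 to 70.1), those of Fabp3 and Cpt2 and the strongest of Acadvl. For summits of other protein-coding genes the count was 349 of 1866 (18.7%, 17.0 to 20.5). Among the 1866, a summit that overlapped several genes was counted once for each of them. With only the strongest summit of each gene, the counts were 3 of 6 (50.0%, 11.8 to 88.2) and 314 of 864 (36.3%, 33.1 to 39.6). The intervals overlap. A band between 100 and 300 bases from the end held 3 of the 9 summits and 346 of the 1866, so nearly every summit this close to an end lay in that band in other genes too. The Acsl1 summit by RefSeq bounds and the Mlycd summit by the table's own gene end also lay within 300 bases of an end, at 230 and 199 bases. These other rules were not applied to the 1866 summits of other genes, so those distances have no matching share. The Lpl summits lay further in, 1230 and 1891 bases from the end, and still within the long 3' UTR.

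**Figure D3:**
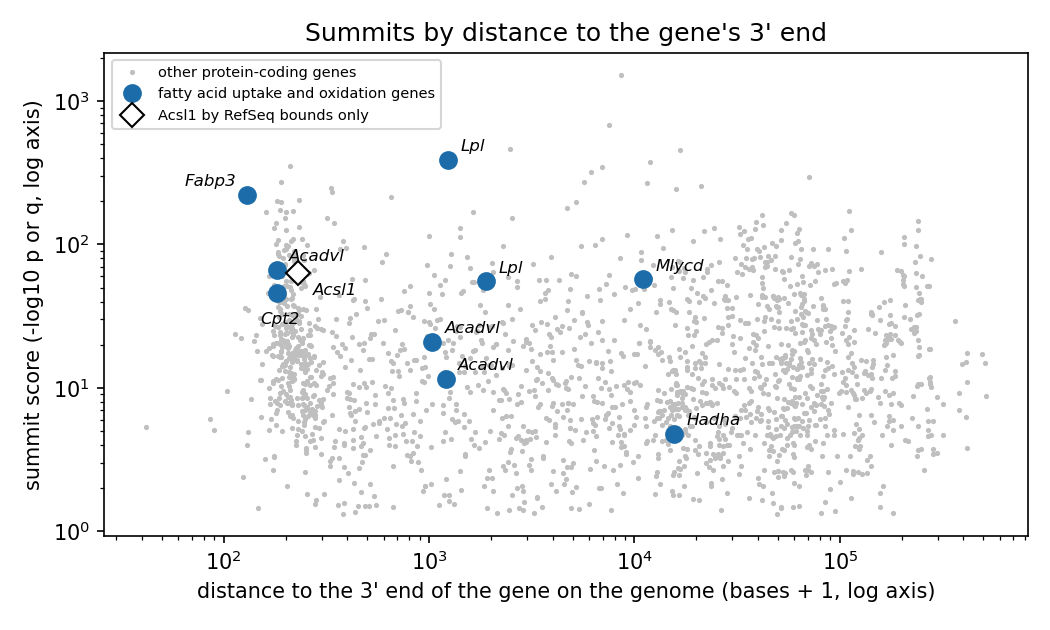
Score of each summit (-log10 p or q, log axis) against its distance to the 3' end of its gene on the genome (bases + 1, RefSeq bounds, log axis), for other protein-coding genes in grey and the 9 fatty acid summits in blue. Fabp3, Cpt2 and the strongest Acadvl summit lie at 129 to 180 bases, the open diamond of Acsl1 at 230, and Hadha and Mlycd at 15638 and 10950, where the Mlycd value rests on the longer RefSeq end.

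Other genes of fatty acid metabolism were sparser in the table. Of 73 further genes in 9 lists, 12 had a summit (16.4%, 8.79 to 27.0), against 4.22% of all protein-coding genes. As above, that background holds genes that the heart does not express, so the higher share does not tell binding from expression. The lists, too, were chosen with earlier results of these data known. The highest scores were those of Ppargc1b, a coactivator of oxidative metabolism, with 105 and 4 summits, and of Acacb, with 105 as its highest and 8 summits. Acacb is acetyl-CoA carboxylase 2, which makes the malonyl-CoA that Mlycd removes. Its strongest summit lay in the 3' UTR, 6 lay in exons and 1 in an intron, and its scores reached down to 1.59. Acaca, the other acetyl-CoA carboxylase and also a source of malonyl-CoA, had no summit, nor had Prkaa1 and Prkaa2, catalytic subunits of the kinase AMPK, so that 1 of the 4 genes of that list had one.

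Within the mitochondrial beta-oxidation list 3 of 16 genes had a summit (18.8%, 4.05 to 45.6), all below Acadvl. Acads, the short-chain acyl-CoA dehydrogenase, scored 15.7 in its last exon, and Acadm, the medium-chain enzyme, scored 11.6 in its 3' UTR. Etfb, a subunit of the flavoprotein that takes electrons from these dehydrogenases, scored 1.79, near the lowest score of the table (1.32), at a base that it shares with another gene. Acadl, Acad9, Acad10 and Acad11 were among the 13 genes without one. The acyl-CoA dehydrogenases with a summit thus came in the order Acadvl at 66.8, Acads at 15.7 and Acadm at 11.6.

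Of the list for lipoprotein lipolysis and uptake, 2 of 9 genes had a summit, the lipoprotein receptor Vldlr at 7.66 in exon 6 and the binding protein Fabp4 at 8.29 in its last exon. Both lie far below Lpl and Fabp3. Gpihbp1, Lmf1, Angptl4 and Slc27a1 had none, although Gpihbp1 anchors lipoprotein lipase at the vessel wall and Lmf1 is needed for its maturation. Among acyl-CoA synthetases and thioesterases 1 of 8 had a summit, the mitochondrial acetyl-CoA synthetase Acss1, with 16.6 in the 3' UTR and 2.01 in an intron. Acsl3, Acsl4, Acsl5 and Acsl6 were without. None of the 5 other carnitine shuttle genes, among them Cpt1a, Cpt1c, Slc25a20 and Crat, had a summit (upper bound 52.2%).

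Of the genes for triglyceride storage and release 1 of 10 had a summit, the monoglyceride lipase Mgll at 23.8 in the 3' UTR, whereas Pnpla2, Lipe, Abhd5 and Plin2 had none. A summit of score 26.6, listed without a gene, fell within the RefSeq bounds of Gpam, an acyltransferase of triglyceride synthesis, 205 bases from its 3' end, as with Acsl1. Transcriptional regulators had 3 of 10, with the receptor Rxra at 41.7 and Ppargc1a at 7.17, both in the 3' UTR, beside Ppargc1b. Ppara, Ppard, Pparg and Esrra had none. Ketone body oxidation had 1 of 3, Oxct1 at 16.8 in the 3' UTR, with Bdh1 and Acat1 lacking one, and the peroxisomal list had 0 of 8, with Ehhadh, Hsd17b4 and Acaa1a among them (upper bound 36.9%).

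**Figure D4:**
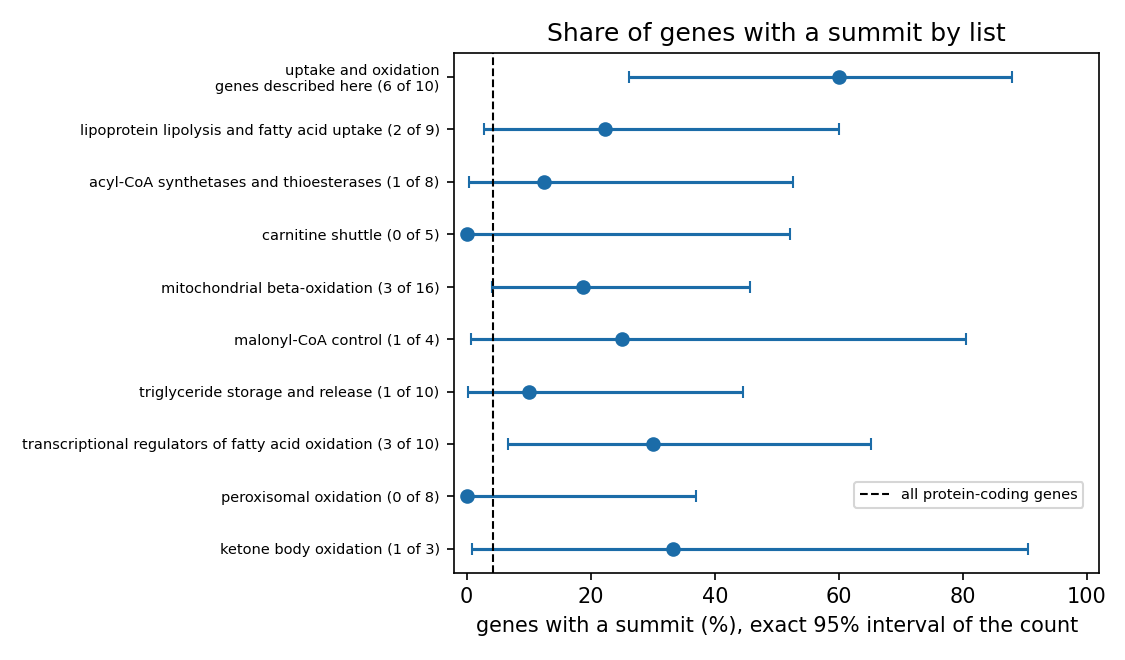
Share of genes with a summit (points, in percent) in the 10 genes described here and in 9 lists of other genes of fatty acid metabolism, with exact 95% intervals of the counts as bars and the 4.22% of all protein-coding genes as a dashed line. The 10 genes stand at 60.0%, and the other lists range from 0% to 33.3% with wide intervals. Genes and lists were chosen with earlier results of these data known, so the gap between them was not tested.

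Among cell type markers, 6 of 12 cardiomyocyte markers had a summit, with strongest scores from 6.09 in Tnni3 to 1524 in Myh6. Tnnt2, Actc1, Myl2, Myl3, Ckm and Pln had none. Endothelial markers had 4 of 10, fibroblast markers 2 of 8 and leukocyte markers 1 of 8, with strongest scores from 2.69 in Cd74 to 24.9 in Col1a1. The ranges overlapped only through Tnni3. The other cardiomyocyte markers with a summit lay above 24.9, with Myom1 at 131, Ryr2 at 160, Ttn at 297 and Tnnc1 at 351 below Myh6. Adipocytes also make lipoprotein lipase, and none of 6 adipocyte markers, Adipoq and Plin1 included, had a summit (upper bound 45.9%). That list did not hold Fabp4, which adipocytes also express and which was counted among the endothelial markers, with a summit of 8.29. Levels of these markers in the libraries are unknown, because the table gives summits alone. The counts therefore do not check which cells the RNA came from. The part that cells other than cardiomyocytes have in the Lpl signal was not tested.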

How the data were processed

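RIP and Input RNA of mouse hearts that expressed FLAG-NAT10 were compared by the authors, with 1 library of each, sequenced as paired reads of 150 bases. Per the submitters' processing notes, the tools were fastp, BWA (0.7.12), MACS2 (2.1.0) and HOMER. The table as deposited by the authors gives each summit a -log10 p-value or q-value, a position and the overlapped genes. The lowest score, 1.32, lies just above the -log10 of 0.05 (1.30). The notes name the build GRCm39, but 98.9% of 1914 lines matched by symbol lay inside their RefSeq GRCm38 gene, against 28.1% of 2140 lines matched by identifier in GENCODE on GRCm39. All 9 summits lay inside their RefSeq GRCm38 gene and 0 inside their GRCm39 bounds.

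Summits were counted once each and assigned by the table's own overlap. For distances to gene ends, a summit was counted once for each gene it overlapped. Each of the 2020 summits was given 1 region, in the order internal exon, last exon, 3' UTR, 5' UTR, intron, and a member's summit took the region listed for that member. Percentiles rank the strongest score per gene. GENCODE release 39 supplied names, strands, transcript lengths and 1 exon sequence. Intervals are exact (Clopper-Pearson). Counting was tested on simulated summits. All 10 members are named, every other pathway gene with a summit, and up to 4 per list without one. Of the genes under this rule, 1 is not reported here. Members and lists were chosen with earlier results of these data known. Python 3.11.15, pandas 2.3.3 and scipy 1.17.1 were used.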

Additional observations from a re-analysis of the deposited data

How the results depend on the processing

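Of the 10 genes, 6 had a summit by the table's overlap, 5 at the median score, at the upper quartile, and when only summits in exactly 1 gene counted (without Acadvl), 6 with exons and UTRs only, and 7 by RefSeq bounds, an alternative chosen after seeing the data. By the closest transcription start 3 remained (Lpl, Hadha and Mlycd), since the table named another gene as closest to the summits of Fabp3, Cpt2 and Acadvl. For Fabp3 the start it named, that of Gm10570, was 6659 bases away. The RefSeq start of Fabp3 was 6596 bases away, so the named start was not shown to be nearer. The 12 other pathway genes became 7 at the median score, 3 at the upper quartile and 5 by the closest start. The 9 summits became 8 when merged within 200 bases or counted as peaks, and the 3' UTR share of 44.4% ranged up to 57.1%. Of 17 alternative percentiles of the strongest scores, 12 lay within an interval set around the main value and 5 outside it. Such a percentile is a rank in a fixed list, so that interval does not measure how stable the rank is. The main limits are 1 library per group, an unknown depth, no control pulldown and few summits. No paired analysis was possible because each group had 1 library.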
